A study of Mus musculus with 25 samples.

Results

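The genes described here are 10 direct targets of bone morphogenetic protein (BMP) and Notch signalling, followed through every culture condition of a mouse astrocyte study. They are Id1, Id2, Id3 and Id4, then Hes1, Hes5, Hey1 and Hey2, then Smad6 and Smad7. Members were chosen by gene name, and each of the 10 matched a single entry among the 54429 entries of the expression table. Expression was measured by RNA sequencing in 25 libraries that fall into 9 groups. All of them are astrocytes from the cortex of C57BL/6J mice, bound to a dish by an antibody to the astrocyte surface protein HepaCAM (immunopanning) and then cultured.

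The EGFR inhibitor group (n = 3) had its own DMSO control group (n = 3). The HBEGF withdrawal group (n = 2) was set against cultures given HBEGF (n = 2), a protein ligand of the epidermal growth factor receptor EGFR. The P53 inhibitor group (n = 3) had a separate DMSO control group (n = 3). The last 3 groups were cells at in-vitro day 2, day 7 and day 14 (n = 3 each). Inhibitors went into the medium on day 2, and HBEGF was given or withheld from the day of preparation. The labels name neither the inhibitor compounds nor their doses, and they give no harvest day for treated cells, no mouse age and no HBEGF status for the day series. Nothing says that replicates came from separate animals or cultures, so each p-value reflects the spread between the libraries alone, which may be technical.

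BMP ligands bind serine/threonine kinase receptors whose SMAD proteins enter the nucleus and switch on the Id genes, along with Smad6 and Smad7, whose products damp the same receptors. Notch receptors are cut when a neighbouring cell's ligand binds them, and the freed fragment joins the DNA-binding protein RBPJ to switch on Hes and Hey genes. Id proteins hold partner helix-loop-helix factors off DNA, while Hes and Hey proteins are repressors. In the developing cortex both families are known for holding back neuronal differentiation, and BMP and Notch signals favour the astrocyte fate.

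Promoters are shown for Hes5, Hey2 and Id4, because each holds the letters of the RBPJ core motif TGGGAA within the 250 bases before its start. They come from RefSeq (build GRCm38.p6), which had a promoter for 6 of the 10 members, and the other 3 (Id2, Id3 and Smad6) hold no copy of those letters in that window. Sequences run 5′ to 3′ on the gene's own strand, and capitals mark TGGGAA or its reverse complement TTCCCA.
Hes5, chr4:154960673-154960922, plus strand: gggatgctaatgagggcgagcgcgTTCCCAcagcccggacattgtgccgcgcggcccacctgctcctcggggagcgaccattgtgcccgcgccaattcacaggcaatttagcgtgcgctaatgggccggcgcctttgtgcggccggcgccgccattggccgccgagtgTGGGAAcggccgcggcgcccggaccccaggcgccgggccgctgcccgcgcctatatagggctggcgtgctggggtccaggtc
Hey2, chr10:30842784-30843033, minus strand: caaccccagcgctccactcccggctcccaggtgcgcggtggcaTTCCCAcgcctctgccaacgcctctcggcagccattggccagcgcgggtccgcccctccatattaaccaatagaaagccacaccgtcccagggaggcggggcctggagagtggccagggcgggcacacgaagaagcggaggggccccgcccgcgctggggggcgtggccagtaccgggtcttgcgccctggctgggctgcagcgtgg
Id4, chr13:48260866-48261115, plus strand: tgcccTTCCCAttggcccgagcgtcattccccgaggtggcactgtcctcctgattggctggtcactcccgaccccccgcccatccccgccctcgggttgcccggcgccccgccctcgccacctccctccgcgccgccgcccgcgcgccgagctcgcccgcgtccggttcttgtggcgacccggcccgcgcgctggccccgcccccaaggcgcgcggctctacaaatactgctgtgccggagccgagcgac
The Hes5 window has 2 such matches, which begin 226 and 82 bases before the start and lie on opposite strands. The Hey2 window has 1 match at 207 bases, and the Id4 window has 1 match at 245 bases. Both Hes5 matches and the Hey2 match belong to the longer string GTGGGAA, and the Id4 match does not. Among 32817 mouse promoters searched on both strands, 21.6% hold TGGGAA and 5.42% hold GTGGGAA, which contains it. The letters GGCGCC, one form of GC-rich SMAD element, begin 123, 106, 69 and 54 bases before the Hes5 start, 148 bases before the Id4 start and 231 bases before the Id2 start, and occur in 9.59% of all promoters. Distances count from the RefSeq start, which for Id4 lies upstream of the GENCODE gene position given below, with first bases found in no GENCODE transcript, and which for Id2, Id3 and Hey2 lies inside the GENCODE span. These matches are strings of letters and are not evidence of binding.

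Gene positions below are those of GENCODE M21 on GRCm38. The deposited unit is RPKM, a read count scaled to gene length and to the reads counted in the library, and the length used by the authors matched the whole gene span with its introns. Levels are therefore comparable between libraries for one gene, but between genes only after rescaling to exon length. Libraries held 4012358 to 9698571 counted reads. Marker values here and below are RPKM as deposited, so genes with long introns can fall under 1 RPKM for that reason. In sums of markers, compact genes weigh more. Of 15 astrocyte markers, 13 averaged at least 1 RPKM over all 25 libraries, and none of 8 endothelial and none of 11 neuronal markers did. Among 6 oligodendrocyte precursor markers 5 reached that level. Within single groups, 2 of the 11 neuronal markers, Tubb3 and Dcx, averaged at least 1 RPKM with the EGFR inhibitor, after withdrawal and with HBEGF, and Nefl did on day 2. In bulk cultures, fewer cells of a type and less RNA per cell cannot be told apart.

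Per exon length, the order of the median levels over the 25 libraries was Id3 at 20.2 RPKM, Hey1 at 14.2, Id1 at 10.5, Hes5 at 9.10, Id2 at 7.57, Hes1 at 6.43 and Id4 at 5.44 RPKM. Smad7, Hey2 and Smad6 had medians of 0.299, 0.228 and 0.114 RPKM on the same scale. As deposited, those last 3 never reached 1 RPKM and so failed the filter on low values (at least 1 RPKM in at least 2 libraries). The other 7 members were tested within a limma fit of log2(RPKM + 1) across 13850 genes and all 25 libraries, two-sided, with Benjamini-Hochberg adjustment and a threshold of 0.05. Log2 changes carry their standard error and understate the change of low genes, while folds are ratios of group mean RPKM.

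With the EGFR inhibitor, Id4 and Hes5 rose while Id3 and Hes1 fell. These 4 of 7 tested members compare with 38.5% of all genes called in that comparison, 16.3% higher and 22.2% lower. Library ranges of all 7 tested members stood apart between the inhibitor and DMSO groups, 4 higher and 3 lower, where 50.3% of all genes did so. After HBEGF withdrawal, Id4 rose and Id3 and Hes1 fell. These 3 of 7 compare with 32.6% of all genes, 10.0% higher and 22.5% lower, and 5 of 7 members had ranges apart, against 56.9% of all genes. The median log2 change of the 7 tested members was 0.16 with the inhibitor and -0.45 after withdrawal, beside -0.02 and -0.10 over all genes tested. Over the 2354 genes averaging at least 5 RPKM, that median was -0.33 with the inhibitor and -0.45 after withdrawal. With a filter of 5 RPKM, 2069 of 3995 genes were called with the inhibitor and 1882 of 3995 after withdrawal. Median-of-ratios scaling balanced the calls over all genes, at 2752 higher and 2635 lower with the inhibitor and 2144 higher and 1989 lower after withdrawal, and called the same members. Both treatments thus moved Id4 and Id3 in opposite directions, the inhibitor did so for Hes5 and Hes1 too, and a large part of the transcriptome was called in both.

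Id4 lies at chr13:48261228-48266026 on the plus strand. Its product is the Id family member tied in the mouse brain to neural stem cell quiescence and to the timing of oligodendrocyte differentiation. Id4 had 37.2, 35.2 and 34.7 RPKM with the EGFR inhibitor, against 4.41, 4.75 and 3.65 RPKM in its DMSO controls. It had 20.2 and 25.4 RPKM after HBEGF withdrawal, against 5.36 and 4.37 RPKM with HBEGF. All 5 inhibitor and withdrawal libraries lay far above every one of the other 20, whose highest value was 8.04 RPKM at day 14. The rise with the inhibitor was 8.36-fold (log2 change 2.80 ± 0.27, limma adjusted p = 4.42e-07), and the rise after withdrawal was 4.69-fold (2.02 ± 0.33, limma adjusted p = 0.000132). Inhibitor libraries stood above withdrawal libraries, but the difference between the 2 log2 changes, 0.79 ± 0.42, did not pass (95% interval -0.10 to 1.68). The genes A330033J07Rik and Gm49291 overlap Id4 on the minus strand and the strand setting is not given, so a part of these reads could belong to them.

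Id3 lies at chr4:136143497-136145755 on the plus strand and encodes an Id protein that BMP induces in many cell types. Its values were 5.02, 6.05 and 5.83 RPKM with the EGFR inhibitor and 16.9, 14.55 and 15.1 RPKM in DMSO. After withdrawal they were 4.54 and 6.07 RPKM, compared with 18.6 and 19.0 RPKM under HBEGF. The 5 libraries of the inhibitor and withdrawal groups were all below the lowest of the other 20, 12.6 RPKM at day 14. Id3 fell by 1.32 ± 0.19 on the log2 scale with the inhibitor (limma adjusted p = 2.73e-05), and the DMSO mean was 2.75 times the inhibitor mean. It fell by 1.66 ± 0.23 after withdrawal (limma adjusted p = 3.00e-05), where the HBEGF mean was 3.54 times the withdrawal mean. These changes did not differ detectably (difference 0.35 ± 0.30, 95% interval -0.28 to 0.97).

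Id1, at chr2:152736251-152737410 on the plus strand, is the Id gene most often used as a readout of BMP signalling. It had 5.33, 7.04 and 4.64 RPKM with the EGFR inhibitor and 11.2, 9.58 and 13.1 RPKM in DMSO. The ranges did not overlap, yet the log2 change of -0.89 ± 0.35 missed the threshold (limma adjusted p = 0.0517, and 0.0106 to 0.147 over 18 alternatives). The change passed in 6 of those 18, among them voom on recovered reads (limma adjusted p = 0.036) and the experiment fitted alone (0.0106). After withdrawal Id1 had 11.1 and 6.69 RPKM, and 12.5 and 8.75 RPKM with HBEGF, which overlap. The fitted change there was -0.25 ± 0.43.

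Id2, at chr12:25093799-25097140 on the minus strand, encodes an Id protein expressed widely in neural precursors. Its levels were 6.68, 7.38 and 10.4 RPKM with the EGFR inhibitor and 5.25, 6.33 and 5.02 RPKM in DMSO. They were 6.64 and 7.20 RPKM after withdrawal, compared with 7.92 and 6.22 RPKM under HBEGF. The inhibitor libraries were all above their controls by a small margin, with a log2 change of 0.47 ± 0.40 that did not pass (limma adjusted p = 0.387). The withdrawal values lay inside the range of the HBEGF values.

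**Figure D1:**
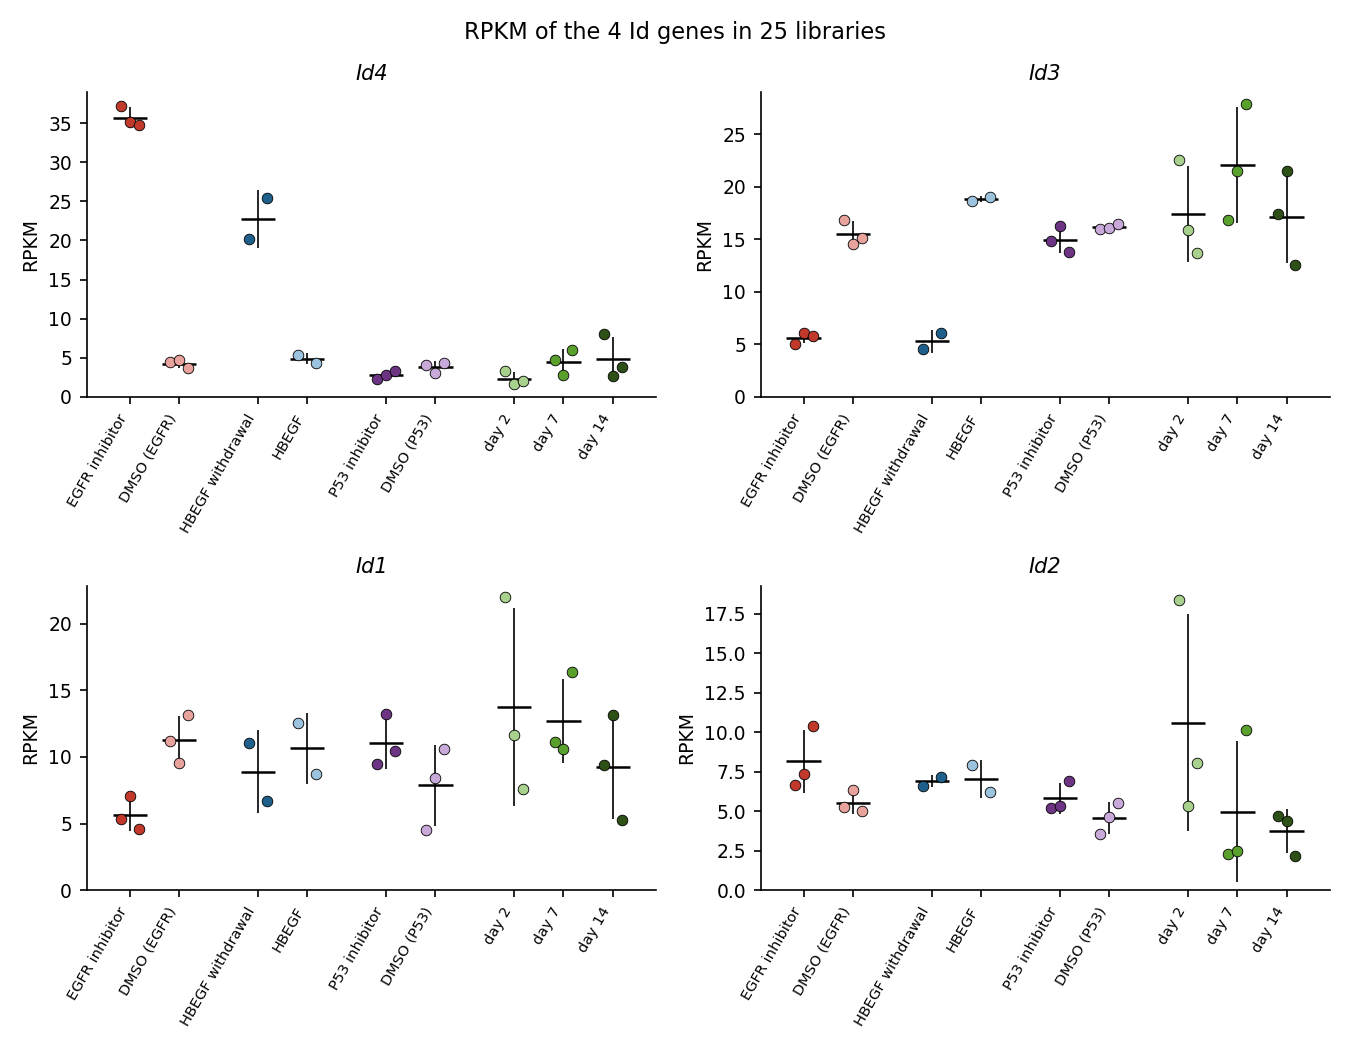
RPKM (vertical axis, linear, from 0) of Id4, Id3, Id1 and Id2 in each of the 25 libraries, 1 point per library, with the group mean as a horizontal bar and 1 SD as a vertical line. Id4 is high and Id3 low in the 3 EGFR inhibitor and 2 HBEGF withdrawal libraries only, while Id1 and Id2 overlap across most groups.

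Together these shifts changed which Id gene dominated. On the exon length scale, Id4 made up 65.0% ± 3.5 of the summed Id level with the EGFR inhibitor and 12.2% ± 1.7 in DMSO (SD, n = 3 each). It made up 52.96% ± 5.2 after HBEGF withdrawal and 12.1% ± 0.57 with HBEGF (SD, n = 2 each). Id3 made up 10.4% ± 0.86 with the inhibitor and 44.6% ± 2.2 in DMSO, and 12.5% ± 1.8 after withdrawal and 47.6% ± 5.3 with HBEGF. The ratio of Id4 to Id3 ran between 5.75 and 7.32 in inhibitor libraries and between 0.239 and 0.323 in their controls. It was 4.13 and 4.40 after withdrawal and 0.227 and 0.285 with HBEGF, and between 0.104 and 0.456 in the 15 libraries of the other 5 groups. The summed Id level was 68.5 ± 1.2 RPKM with the inhibitor and 43.7 ± 1.3 RPKM in DMSO, but 53.5 ± 3.4 RPKM after withdrawal and 50.1 ± 4.9 RPKM with HBEGF, ranges that overlap.

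**Figure D2:**
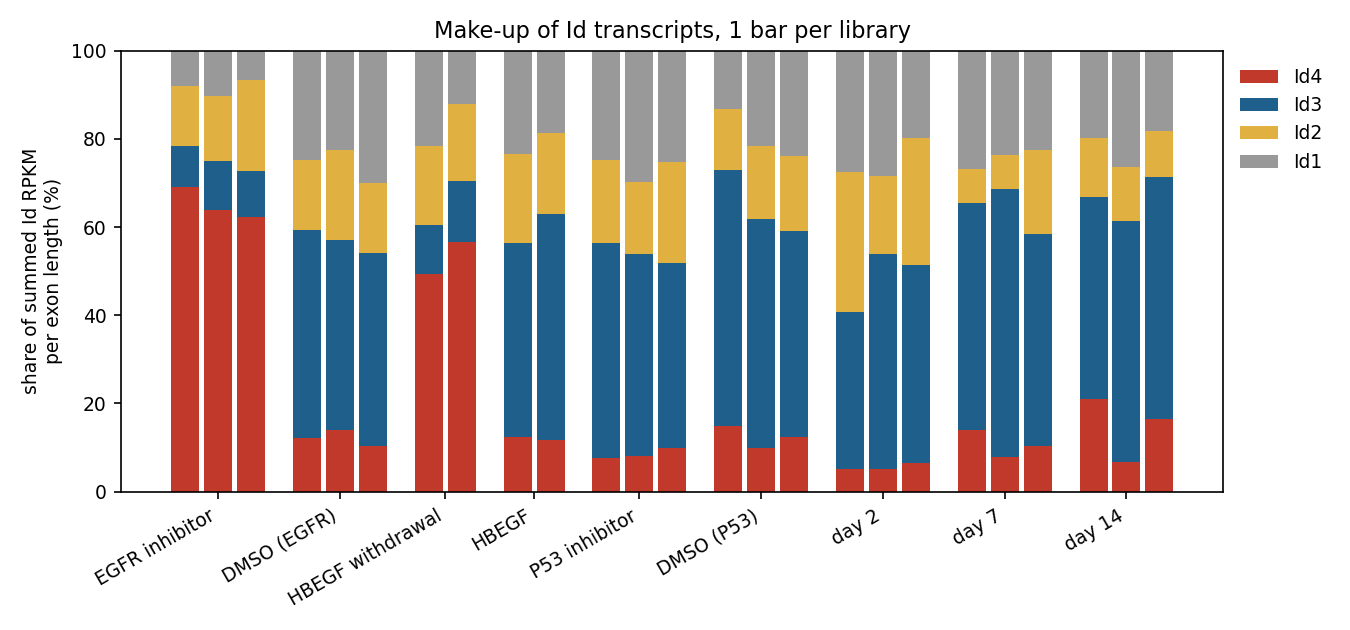
Share (%) of the summed Id1 to Id4 level, in RPKM per exon length, held by each Id gene, with 1 stacked bar for each of the 25 libraries. Id4 holds the largest share in the EGFR inhibitor and HBEGF withdrawal libraries, at 49.3 to 69.0%, while Id3 leads in the rest, where Id4 holds 5.09 to 20.95%.

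Hes1, at chr16:30064384-30067796 on the plus strand, encodes a repressor that responds to Notch and, in several cell types, to growth factor signals too. Hes1 had 2.16, 1.85 and 2.23 RPKM with the EGFR inhibitor, against 4.54, 5.58 and 4.49 RPKM in DMSO. After withdrawal it had 0.807 and 1.46 RPKM, against 3.39 and 3.84 RPKM with HBEGF. In both experiments the treated libraries lay wholly below their controls, and these 5 libraries were the lowest of all 25. Hes1 fell by 0.93 ± 0.12 on the log2 scale with the inhibitor (limma adjusted p = 1.42e-05) and by 1.13 ± 0.15 after withdrawal (limma adjusted p = 2.19e-05). The control means were 2.34 and 3.19 times the treated means. With the HBEGF experiment fitted alone, on 4 libraries, the withdrawal change of Hes1 no longer passed (limma adjusted p = 0.0587).

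Hes5 lies at chr4:154960923-154962371 on the plus strand and encodes a close relative of Hes1 that depends strictly on Notch in neural precursors. It had 16.2, 18.1 and 21.5 RPKM with the EGFR inhibitor, against 3.82, 12.9 and 8.56 RPKM in DMSO. It had 0.634 and 3.16 RPKM after withdrawal, against 4.44 and 4.52 RPKM with HBEGF. So its inhibitor libraries lay above their controls and its withdrawal libraries below theirs. The rise with the inhibitor was 2.20-fold (log2 change 1.18 ± 0.42, limma adjusted p = 0.0346). That call was lost with a pseudocount of 0.1 (limma adjusted p = 0.0806), with no filter (0.0625) and with the experiment fitted alone (0.0610). It also depended on single libraries: without DMSO replicate 1, the lowest control, the log2 change was 0.76 and the limma adjusted p was 0.199. Leaving out DMSO replicate 3 or any 1 inhibitor library also ended it (limma adjusted p between 0.0521 and 0.0988). The withdrawal change of -1.07 ± 0.52 did not pass (limma adjusted p = 0.128). It was -1.75 without withdrawal replicate 2 and -0.40 without withdrawal replicate 1. Each of those fits assumes that a lone withdrawal library varies like the other groups.

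The Hes5 change with the inhibitor exceeded the change after withdrawal by 2.25 ± 0.67 on the log2 scale (95% interval 0.83 to 3.66), and this difference missed the threshold after adjustment (limma adjusted p = 0.0928, and 0.0507 to 0.307 over the alternatives). No member passed in that comparison, in which 1.83% of all genes did, 1.27% higher and 0.556% lower. At an unadjusted p under 0.05, Hes5 and Hey1 were the members counted, among 2189 of all genes. The minus-strand gene Gm20421 overlaps Hes5, so some of its reads could also be assigned to either gene. The ratio of Hes5 to Hes1 per exon length was 4.76 to 6.18 with the inhibitor and 0.534 to 1.47 in DMSO. It was 0.498 and 1.38 after withdrawal, on either side of the 0.748 and 0.831 found with HBEGF.

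Hey1, at chr3:8663359-8667256 on the minus strand, encodes a Hes-related repressor induced by Notch and in endothelial cells also by BMP. It had 16.0, 16.4 and 18.5 RPKM with the EGFR inhibitor, against 13.9, 15.6 and 15.7 RPKM in DMSO. After withdrawal it had 8.52 and 8.97 RPKM, against 12.7 and 11.9 RPKM with HBEGF. Hey1 thus sat just above its controls with the inhibitor and below them after withdrawal, as Hes5 did. Neither change passed, at 0.16 ± 0.15 (limma adjusted p = 0.455) and -0.45 ± 0.19 (limma adjusted p = 0.0810). Over 16 alternatives the withdrawal change ran from -0.50 to -0.19 and its limma adjusted p from 0.0493 to 0.523. Only voom on recovered reads passed. The median change of genes averaging at least 5 RPKM was also -0.45 after withdrawal. The difference between the inhibitor and withdrawal changes of Hey1 was 0.61 ± 0.24 (95% interval 0.09 to 1.13, limma adjusted p = 0.224).

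**Figure D3:**
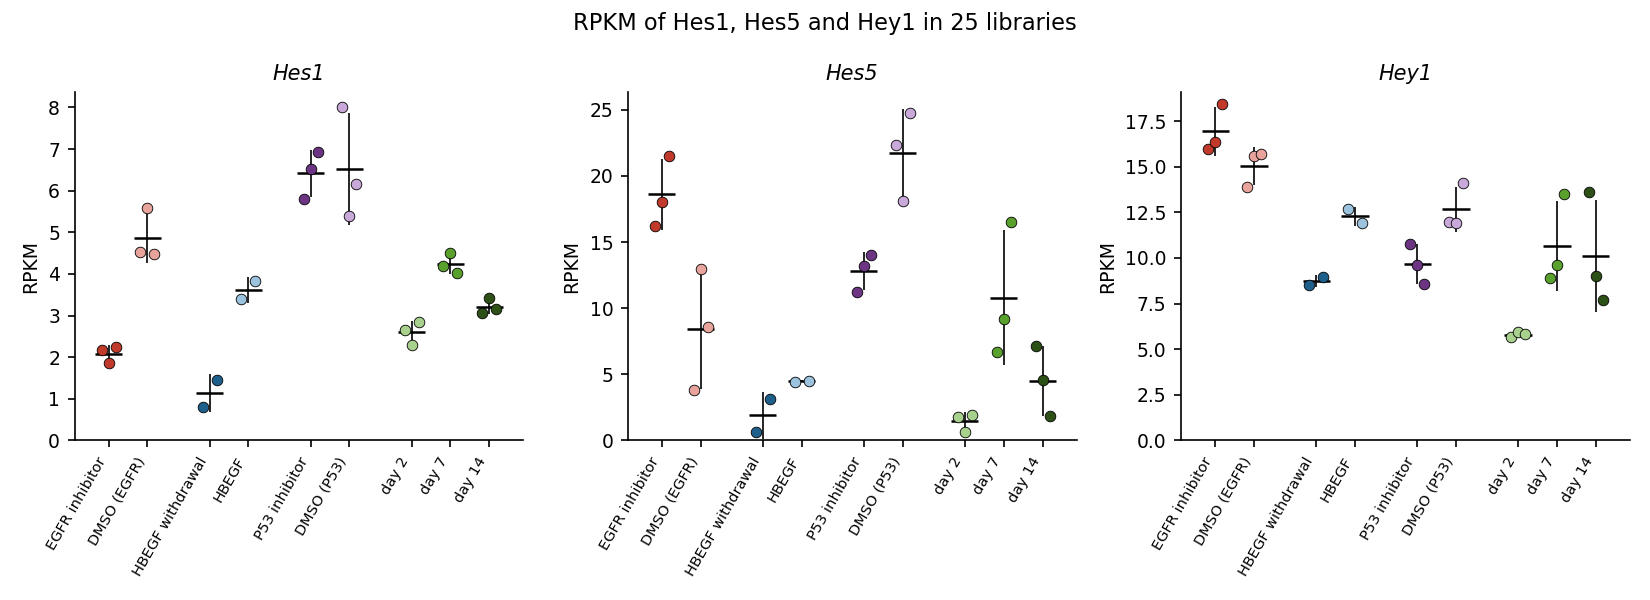
RPKM (vertical axis, linear, from 0) of Hes1, Hes5 and Hey1 in the 25 libraries, 1 point per library, with group means as horizontal bars and 1 SD as vertical lines. Hes1 is lowest in the EGFR inhibitor and HBEGF withdrawal groups. Hes5 is highest in the P53 DMSO and EGFR inhibitor groups and Hey1 in the EGFR inhibitor and EGFR DMSO groups. Both are lowest after withdrawal and at day 2.

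Smad7, Smad6 and Hey2 were read from few counts, recovered from RPKM and gene span. Smad7, at chr18:75367529-75395935, encodes an inhibitory SMAD for both BMP and TGF-beta receptors, and its exons cover 15.9% of the span. It had 67 and 27 reads after HBEGF withdrawal, against 15 and 3 reads with HBEGF, or 10.2 and 5.37 RPM against 1.93 and 0.491 RPM once scaled to the reads counted per library. Withdrawal libraries were the highest of all 25. With voom on the recovered reads the log2 change was 2.78 ± 0.70 (limma adjusted p = 0.00205), and with RPKM per exon length it was 1.09 ± 0.25 (limma adjusted p = 0.00222). With the EGFR inhibitor Smad7 had 18, 10 and 19 reads, against 5, 9 and 6 reads in DMSO, and the voom change of 1.43 ± 0.65 did not pass (limma adjusted p = 0.0691). On the RPM scale these groups did not overlap, at 1.67 to 3.29 RPM with the inhibitor and 0.729 to 1.35 RPM in DMSO.

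Smad6, at chr9:63953076-64022059, encodes the inhibitory SMAD that is more selective for BMP receptors, and its exons cover 4.6% of the span. It had 0 reads in 6 libraries and at most 25 in any. Withdrawal gave 25 and 9 reads and HBEGF 18 and 3. EGFR inhibitor libraries had 1, 3 and 15 reads, against 2, 2 and 3 reads in DMSO, so that a single library made the difference. On day 2 it had 15, 4 and 7 reads, on day 7 it had 5, 0 and 0, and on day 14 it had 1, 0 and 0. A count of 0 allows up to 3 reads per library, for counting error only. Voom called the day 14 level lower than day 2 (limma adjusted p = 0.0107), from a fitted change that depends on how near-zero counts are offset.

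Hey2, at chr10:30832359-30842801 on the minus strand, is a Notch-induced repressor best known in heart and vessels. Its reads were 25, 16 and 18 with the EGFR inhibitor and 13, 8 and 19 in DMSO. They were 32 and 2 after withdrawal and 9 and 3 with HBEGF, so the withdrawal libraries disagreed more than any other group. Its voom changes of 0.84 ± 0.50 and 1.04 ± 0.85 did not pass (limma adjusted p = 0.170 and 0.353).

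**Figure D4:**
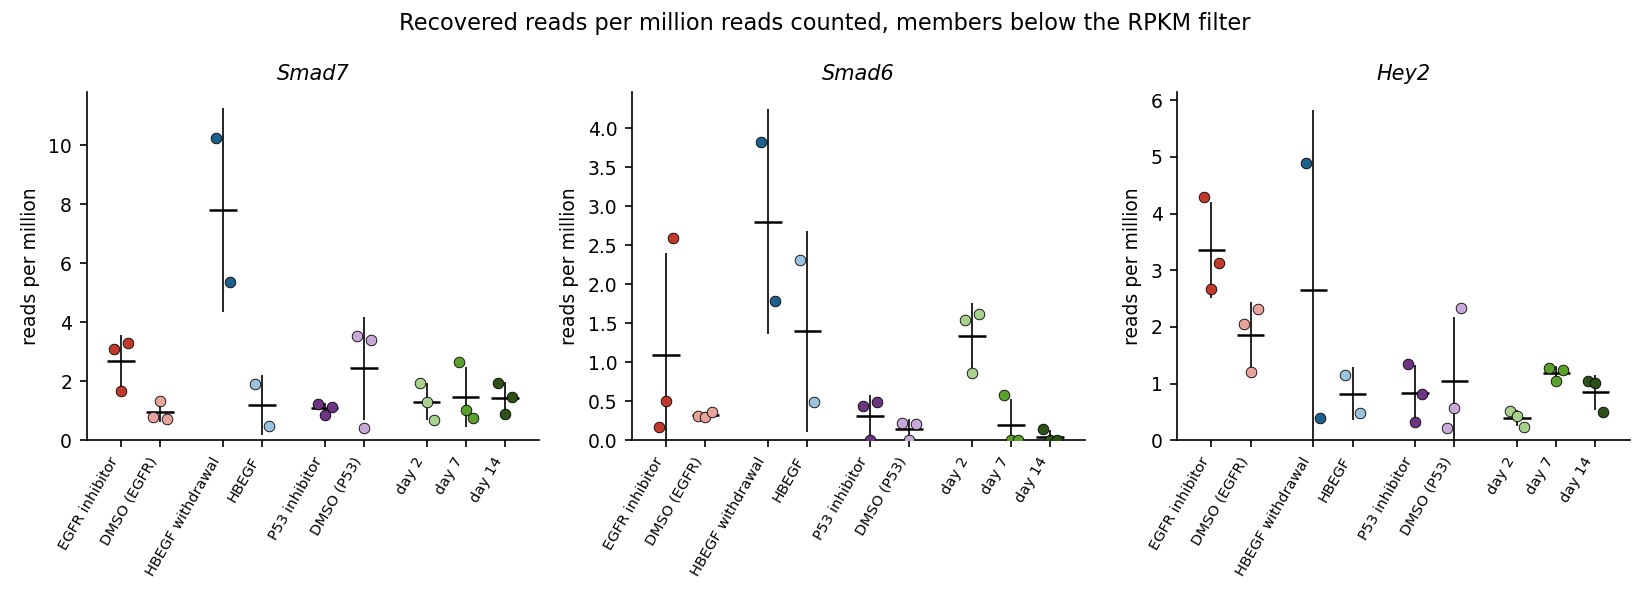
Recovered reads scaled to library depth (RPM, vertical axis, linear, from 0) for Smad7, Smad6 and Hey2 in 25 libraries, 1 point per library, with group means as horizontal bars and 1 SD as vertical lines clipped at 0. Smad7 is highest in the 2 HBEGF withdrawal libraries, at 5.37 and 10.2 RPM, and the other groups stay at or below 3.52 RPM.

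Other measures moved with the same 2 contrasts. Mitochondrial ribosomal RNA took 22.3 to 25.4% of reads with the EGFR inhibitor and 18.4 to 18.8% in DMSO, and 28.0 to 29.8% after withdrawal and 17.2 to 18.2% with HBEGF. The summed level of the 11 microglial markers was 12.9 to 27.3 RPKM after withdrawal and 0.0433 to 0.235 RPKM with HBEGF, with 2 of 11 and 0 of 11 averaging at least 1 RPKM and Tmem119 at 0 in both. With the inhibitor it was 2.54 to 5.73 RPKM, against 0.481 to 1.002 RPKM in DMSO. The summed level of 7 pericyte and smooth muscle markers was 13.0 to 19.7 RPKM after withdrawal and 3.77 to 4.86 RPKM with HBEGF, with Kcnj8 and Abcc9 at 0 in both groups. Acta2 made up most of it, at 14.2 RPKM after withdrawal and 3.72 RPKM with HBEGF, and Pdgfrb averaged 1.51 and 0.199 RPKM. For 6 oligodendrocyte precursor markers the sum was 113 to 137 RPKM with the inhibitor and 322 to 418 RPKM in DMSO, and 92.5 to 98.7 RPKM after withdrawal and 391 to 418 RPKM with HBEGF. Olig1 and Olig2 dominate that sum, and other markers in the list had the opposite order: Gpr17 averaged 7.87 RPKM with the inhibitor and 1.498 RPKM in DMSO, Pdgfra 2.10 and 1.497 RPKM, and Sox10 2.76 and 1.54 RPKM in those groups, and Sox10 averaged 5.05 RPKM after withdrawal and 3.72 RPKM with HBEGF. Cspg4 averaged 0.453 RPKM with the inhibitor and 1.13 RPKM in DMSO, and Pdgfra 1.31 RPKM after withdrawal and 2.84 RPKM with HBEGF. Astrocyte markers summed to 472 to 492 RPKM with the inhibitor and 178 to 216 RPKM in DMSO, and to 375 to 406 RPKM after withdrawal and 181 to 190 RPKM with HBEGF. Sox9, Aldoc and Gfap gave most of that rise. Aldh1l1 and Acsbg1 had the opposite order, at 1.265 and 0.502 RPKM with the inhibitor and 2.07 and 2.31 RPKM in DMSO. After withdrawal they averaged 0.466 and 0.671 RPKM, and 1.17 and 2.22 RPKM with HBEGF. Slc1a3 averaged 11.8 RPKM after withdrawal and 17.0 RPKM with HBEGF. The 5 ependymal and choroid plexus markers, nearly all Foxj1, summed to 15.6 to 20.8 RPKM with the inhibitor and 2.65 to 3.02 RPKM in DMSO, and to 31.6 to 37.3 RPKM after withdrawal and 4.16 to 6.08 RPKM with HBEGF, and Ttr was at 0 in DMSO, after withdrawal and with HBEGF. The 11 neuronal markers summed to 5.03 to 5.82 RPKM with the inhibitor and 1.35 to 2.35 RPKM in DMSO, and to 4.69 to 5.53 RPKM after withdrawal and 2.09 to 4.88 RPKM with HBEGF. The 6 oligodendrocyte markers summed to 6.71 to 7.19 RPKM with the inhibitor and 3.54 to 5.36 RPKM in DMSO, and to 26.8 to 29.3 RPKM after withdrawal and 8.65 to 17.6 RPKM with HBEGF. Fibroblast markers stayed at or below 0.981 RPKM and endothelial markers at or below 0.421 RPKM in every library. The part of these shifts in the member changes was not tested.

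The pathway around the members was taken from lists of 104 other BMP and Notch genes and helix-loop-helix partners, 47 of which were tested. With the EGFR inhibitor 16 of the 47 rose and 12 fell, where 16.3% of all genes were called higher and 22.2% lower. After withdrawal 12 rose and 14 fell, where 10.0% were called higher and 22.5% lower. Genes that act before the members shifted in both directions.

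Among 3 tested BMP ligands, Bmp4 averaged 1.24 ± 0.10 RPKM with the inhibitor and 0.09 ± 0.05 RPKM in DMSO (limma adjusted p = 0.000505). Bmp7, by contrast, averaged 0.08 ± 0.02 and 0.92 ± 0.04 RPKM in those groups (limma adjusted p = 1.21e-05). After withdrawal Bmp4 averaged 1.03 ± 0.08 RPKM and with HBEGF 1.79 ± 0.85 RPKM, and its 2 changes differed (difference 1.47 ± 0.32, limma adjusted p = 0.0239). Fstl1 and Nbl1, which encode secreted binders of BMP ligands, rose under both treatments. Fstl1 averaged 4.79 ± 0.35 RPKM with the inhibitor and 1.92 ± 0.03 RPKM in DMSO, and 4.96 ± 0.07 RPKM after withdrawal and 2.76 ± 0.81 RPKM with HBEGF. Nbl1 reached 7.89 ± 3.10 RPKM after withdrawal, against 1.90 ± 0.66 RPKM with HBEGF. Smad5, which carries the BMP signal to the nucleus, fell to 8.62 ± 0.22 RPKM with the inhibitor, against 21.2 ± 0.75 RPKM in DMSO, and to 6.02 ± 0.16 RPKM after withdrawal, against 11.98 ± 3.91 RPKM with HBEGF. It was the only 1 of 4 tested BMP signal transducers called in either comparison. The median log2 change of those 4 was 0.05 with the inhibitor and -0.12 after withdrawal. The co-receptor Rgma rose with the inhibitor (3.42 ± 0.16 RPKM, against 1.75 ± 0.54 RPKM in DMSO), and the receptor Bmpr2 fell after withdrawal (2.603 ± 0.05 RPKM, against 4.22 ± 0.28 RPKM with HBEGF).

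Both tested Notch receptors rose under both treatments. Notch2 averaged 3.31 ± 0.18 RPKM with the inhibitor and 1.49 ± 0.10 RPKM in DMSO, and 3.66 ± 0.01 RPKM after withdrawal and 1.95 ± 0.39 RPKM with HBEGF. Among ligands, Jag1 fell in both, to 0.27 ± 0.06 RPKM with the inhibitor, against 1.16 ± 0.06 RPKM in DMSO. Dll4 rose in both, and Dll3, which acts as a Notch inhibitor within the same cell, rose to 2.52 ± 0.31 RPKM with the inhibitor, against 0.70 ± 0.11 RPKM in DMSO. Dll3 averaged 0.71 ± 0.09 RPKM after withdrawal and 0.77 ± 0.45 RPKM with HBEGF, and the changes differed (limma adjusted p = 0.0242). Numbl, a Notch antagonist, rose in both, and Lfng, a sugar transferase that tunes Notch for its ligands, fell in both. These are levels of RNA, and neither receptor cleavage nor SMAD phosphorylation was measured.

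Of the 10 tested helix-loop-helix partners and opponents, the oligodendrocyte lineage factor Olig1 fell to 60.6 ± 4.9 RPKM with the inhibitor, against 248 ± 29 RPKM in DMSO. After withdrawal Olig1 averaged 49.3 ± 7.0 RPKM, and 251 ± 11 RPKM with HBEGF. The proneural factor Neurog2, a gene that Hes proteins repress in the cortex, rose to 4.90 ± 0.38 RPKM with the inhibitor, against 0.11 ± 0.02 RPKM in DMSO (log2 change 2.40 ± 0.19, limma adjusted p = 7.44e-08). Its increase with the inhibitor exceeded that after withdrawal (difference 1.37 ± 0.30, limma adjusted p = 0.0240).

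**Figure D5:**
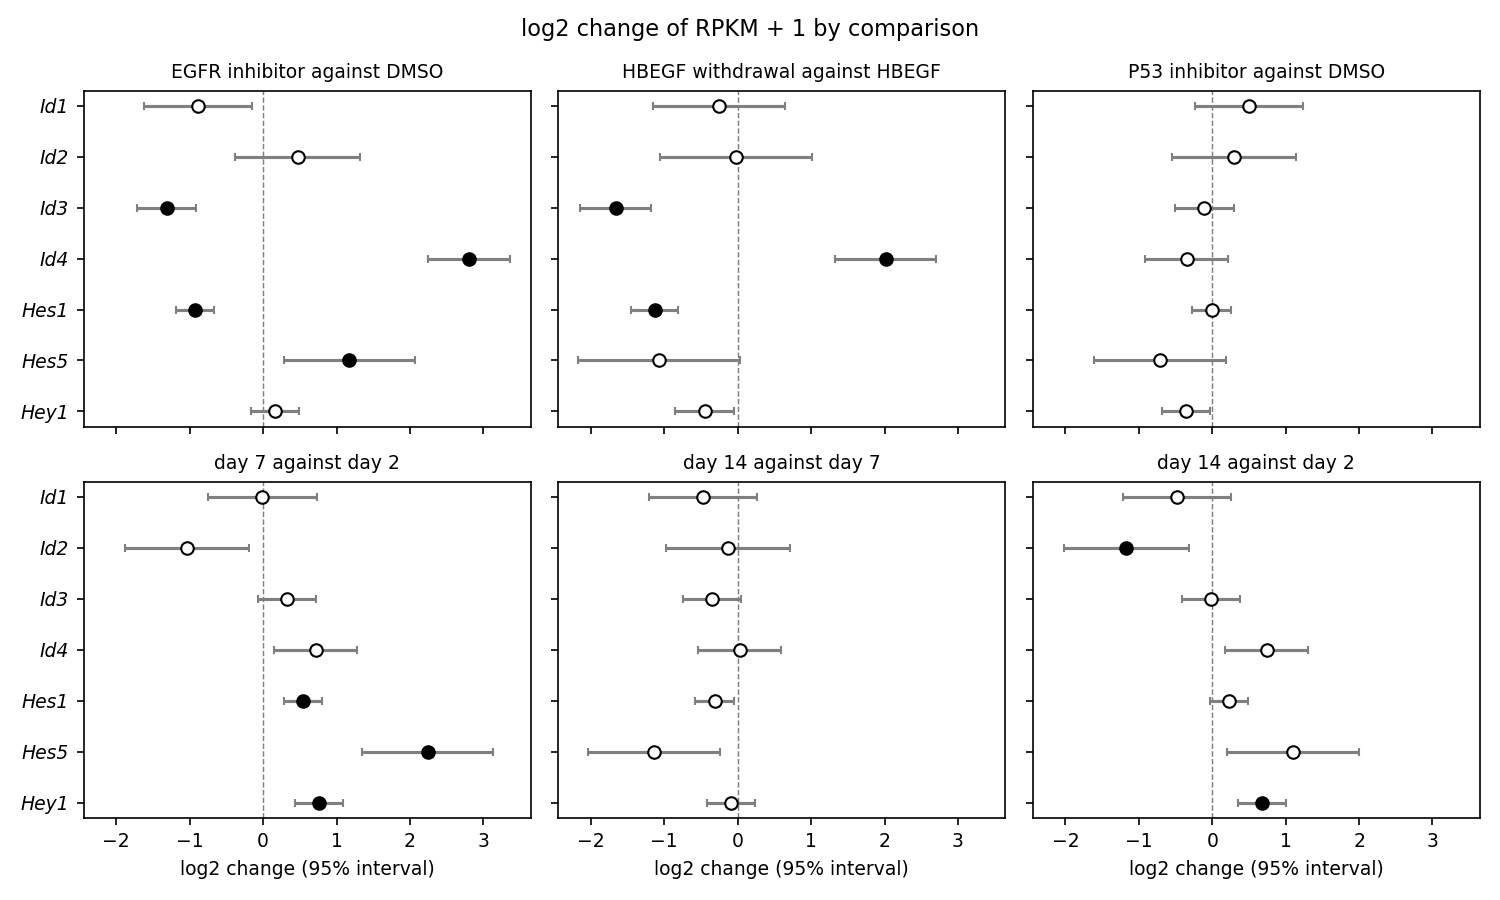
Log2 change of RPKM + 1 (horizontal axis, points) with its 95% interval (bars) for the 7 tested members in each of 6 comparisons, where filled points have a limma adjusted p under 0.05. Id4 is far to the right and Id3 and Hes1 to the left in the EGFR inhibitor and HBEGF withdrawal panels, no point is filled for the P53 inhibitor or for day 14 against day 7, and Hes1, Hes5 and Hey1 are right of 0 for day 7 against day 2.

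With the P53 inhibitor, none of the 7 tested members passed, where 0.181% of all genes did, 0.0289% higher and 0.152% lower. Counts over all genes were 25 by limma, 1128 at an unadjusted p under 0.05, and 121 of 18013 tested with voom. Of the members only Hey1 had an unadjusted p under 0.05 (0.0326), and voom called 0. Hes5 and Hey1 were the 2 members whose ranges stood apart, both lower, compared with 20.3% of all genes. Hes5 had 11.2, 13.2 and 14.1 RPKM with the P53 inhibitor, against 22.4, 18.1 and 24.7 RPKM in its DMSO controls. The log2 change was -0.71 ± 0.42 (95% interval -1.61 to 0.18). Hey1 had 10.8, 9.62 and 8.59 RPKM with the P53 inhibitor, against 11.98, 11.9 and 14.1 RPKM in DMSO, a change of -0.36 ± 0.15. Hes1 overlapped, with 5.80, 6.52 and 6.93 RPKM against 8.005, 5.40 and 6.15 RPKM in DMSO, so the ratio of Hes5 to Hes1 was 1.23 to 1.29 with the P53 inhibitor and 1.77 to 2.55 in DMSO. Id4 had 2.31, 2.86 and 3.25 RPKM with the P53 inhibitor, against 4.13, 3.07 and 4.37 RPKM in DMSO, and Id3 had 14.8, 16.3 and 13.8 RPKM against 16.0, 16.1 and 16.4 RPKM in DMSO. Intervals for Id4 (-0.91 to 0.21) and Id3 (-0.51 to 0.29) leave out changes of the size seen with the EGFR inhibitor. Some marker sums were lower with the P53 inhibitor than in its DMSO group. Astrocyte markers summed to 190 to 196 and 219 to 232 RPKM, though Slc1a2 averaged 5.17 and 3.39 RPKM. Pericyte and smooth muscle markers summed to 0.46 to 0.62 and 1.39 to 1.79 RPKM. Oligodendrocyte markers gave 3.75 to 4.21 and 5.75 to 6.22 RPKM, and oligodendrocyte precursor markers overlapped. The part of these shifts in the member values was not tested.

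Across days in culture, Hes1, Hes5 and Hey1 rose early. Hes1, Hes5 and Hey1 passed for day 7 against day 2, 3 of 7 where 13.7% of all genes were called, 4.12% higher and 9.59% lower, and the same 3 had ranges apart, where 27.5% of all genes did. Hes5 had 1.78, 0.601 and 1.91 RPKM on day 2, 6.69, 9.20 and 16.5 RPKM on day 7 and 7.13, 4.55 and 1.83 RPKM on day 14. The day 7 mean was 7.54 times that of day 2 (log2 change 2.24 ± 0.42, limma adjusted p = 0.00213). Day 14 lay between, overlapping both, and its change from day 7 of -1.14 ± 0.42 did not pass (limma adjusted p = 0.337).

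Hey1 had 5.66, 5.92 and 5.81 RPKM on day 2, 8.90, 9.61 and 13.5 RPKM on day 7 and 13.6, 9.01 and 7.71 RPKM on day 14. Every library of the later days exceeded every library of day 2. It rose by day 7 (log2 change 0.76 ± 0.15, limma adjusted p = 0.00389) and was still higher on day 14 than on day 2 (0.67 ± 0.15, limma adjusted p = 0.00404). Hes1 had 2.66, 2.30 and 2.84 RPKM on day 2, 4.19, 4.51 and 4.02 RPKM on day 7 and 3.07, 3.42 and 3.15 RPKM on day 14, and the 3 ranges did not overlap. Its rise by day 7 passed (0.54 ± 0.12, limma adjusted p = 0.00744), and the change of -0.31 ± 0.12 between day 7 and day 14 did not. With the day libraries fitted alone, Hes1 was the 1 member still called at day 7, and Hes5 (limma adjusted p = 0.0581) and Hey1 (0.111) were not.

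Hey2, the other member of that family, had 5, 2 and 1 reads on day 2, 11, 5 and 5 reads on day 7 and 7, 8 and 3 reads on day 14. Scaled to depth, day 7 lay above day 2, at 1.04 to 1.27 RPM and 0.23 to 0.52 RPM. The voom change of Hey2 for day 7 against day 2 did not pass (1.38 ± 0.83, limma adjusted p = 0.283). Other measures moved over the same days. Mitochondrial ribosomal RNA took 12.3 to 16.1% of reads on day 2, 18.9 to 19.4% on day 7 and 20.2 to 23.9% on day 14. Astrocyte markers summed to 111 to 156 RPKM on day 2, 201 to 270 RPKM on day 7 and 206 to 330 RPKM on day 14. Pericyte and smooth muscle markers summed to 1.32 to 2.94 RPKM, 3.75 to 13.5 RPKM and 4.01 to 9.60 RPKM on those days, with Kcnj8 at 0 on all of them. Acta2 made up most of that, at 1.63, 6.485 and 6.18 RPKM, while Pdgfrb averaged 0.114, 0.118 and 0.135 RPKM. Microglial markers, mostly Lyz2, summed to 0.757 to 2.28 RPKM on day 2, 0.207 to 0.610 RPKM on day 7 and 0.173 to 0.221 RPKM on day 14. Neuronal markers summed to 4.21 to 4.33 RPKM on day 2, 1.11 to 4.62 RPKM on day 7 and 0.767 to 1.57 RPKM on day 14. Nefl, which averaged 2.04 RPKM on day 2, was at 0.195 and 0.0871 RPKM on the later days. Oligodendrocyte markers summed to 2.50 to 4.18 RPKM, 5.25 to 6.85 RPKM and 2.87 to 7.21 RPKM on days 2, 7 and 14. The part of these shifts in the member changes was not tested.

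For day 14 against day 7 no member passed, and 0.137% of all genes did, 0.0505% higher and 0.0866% lower (19 genes by limma, 1483 at an unadjusted p under 0.05). Voom also called 0 members, and Hes1 and Hes5 had unadjusted p under 0.05 (0.0202 and 0.0146). Hes1 was the 1 member with ranges apart, compared with 13.4% of all genes. For day 14 against day 2, Hey1 rose and Id2 fell, 2 of 7 members where 23.2% of all genes were called, 5.55% higher and 17.6% lower. Ranges stood apart for Hes1, Hey1 and Id2, where 33.0% of all genes did so.

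Id2 had 18.4, 5.34 and 8.09 RPKM on day 2, 2.31, 2.49 and 10.15 RPKM on day 7 and 4.70, 4.40 and 2.18 RPKM on day 14. The fall of 1.17 ± 0.40 on the log2 scale by day 14 (limma adjusted p = 0.0418) leaned on day 2 replicate 1, without which it was -0.72 (limma adjusted p = 0.216). Leaving out day 2 replicate 3 or any 1 day 14 library also ended the call (limma adjusted p between 0.0542 and 0.163). So did median-of-ratios scaling (0.0962), quantile normalization (0.0973), scaling without mitochondrial genes (0.0828), no filter (0.0801) and the days fitted alone (0.201), and in all 11 of 18 alternatives lost it. Id4 had 3.31, 1.68 and 1.97 RPKM on day 2, 4.66, 2.82 and 6.03 RPKM on day 7 and 8.04, 2.70 and 3.79 RPKM on day 14. Its change between day 2 and day 14 of 0.74 ± 0.27 missed the threshold (limma adjusted p = 0.0519) but passed in 9 of 18 alternatives, among them median-of-ratios scaling (0.0305) and quantile normalization (0.0277), with a range of 0.011 to 0.327 over all 18. Id3 had 22.6, 15.9 and 13.7 RPKM on day 2, 16.85, 21.5 and 27.8 RPKM on day 7 and 17.4, 21.45 and 12.6 RPKM on day 14. Id1 had 22.0, 11.6 and 7.58 RPKM on day 2, 11.1, 10.6 and 16.3 RPKM on day 7 and 9.42, 13.1 and 5.27 RPKM on day 14. For Id3 and Id1 all 3 days overlapped.

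Among the 47 pathway genes tested, 5 rose and 5 fell between day 2 and day 7, where 4.12% of all genes were called higher and 9.59% lower. The Notch ligand Dll1 rose to 6.59 ± 0.79 RPKM on day 7, against 2.62 ± 0.58 RPKM on day 2, and Dll3 to 1.53 ± 0.52 RPKM, against 0.44 ± 0.09 RPKM. Jag1 fell to 0.86 ± 0.25 RPKM, against 2.68 ± 0.03 RPKM on day 2 (log2 change -0.99 ± 0.12, limma adjusted p = 3.25e-05). For day 14 against day 2, 5 rose and 9 fell, where 5.55% of all genes were called higher and 17.6% lower, and none passed for day 14 against day 7 or for the P53 inhibitor.

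Ordered by group mean, Id4 was highest with the EGFR inhibitor (35.7 ± 1.3 RPKM), then after HBEGF withdrawal (22.8 ± 3.7 RPKM), then in the other 7 groups, whose means lay between 2.32 and 4.86 RPKM with each overlapping its neighbour. Id3 had the reverse arrangement, with 7 groups between 15.0 and 22.05 RPKM above the EGFR inhibitor (5.63 ± 0.54 RPKM) and withdrawal (5.30 ± 1.1 RPKM) groups, which overlapped each other. Hes1 averaged most in the P53 DMSO group (6.52 ± 1.3 RPKM) and the P53 inhibitor group (6.42 ± 0.57 RPKM), which overlapped, and least after withdrawal (1.13 ± 0.46 RPKM). Hes5 was highest in P53 DMSO (21.7 ± 3.4 RPKM) and with the EGFR inhibitor (18.6 ± 2.7 RPKM), which overlapped, and lowest at day 2 (1.43 ± 0.72 RPKM), overlapping withdrawal. Hey1 spanned 16.9 ± 1.3 RPKM with the EGFR inhibitor to 5.80 ± 0.13 RPKM at day 2. Neighbouring groups overlapped throughout the order for Id1 and Id2. The 2 DMSO groups, from separate experiments, overlapped for every tested member except Hes5, which averaged 8.44 ± 4.6 RPKM in the EGFR DMSO group beside 21.7 ± 3.4 RPKM in the P53 DMSO group.

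Over the 25 libraries, log2(RPKM + 1) of Id3 and Id4 ran opposite to each other, with a Pearson correlation of -0.83. Hes5 and Hey1 ran together at 0.72, and Hes1 correlated at 0.64 with Id3, at 0.56 with Hes5 and at -0.64 with Id4. These are descriptions over libraries that share groups, so they largely restate the group differences above. Among 1575 genes averaging at least 5 RPKM, counted without the members, predicted genes and pseudogenes, the patterns most like Id4 were those of the cytochrome P450 gene Cyp1b1 (0.965) and of Gfap (0.964), the intermediate filament gene of astrocytes. Gfap averaged 66.0 ± 4.8 RPKM with the EGFR inhibitor and 3.48 ± 0.32 RPKM in DMSO, and 61.8 ± 2.4 RPKM after withdrawal and 4.52 ± 1.8 RPKM with HBEGF. Most like Id3 were Nab2 (0.923) and the immediate early gene Egr1 (0.921), whose means were 20.3 ± 4.2 RPKM with the inhibitor and 84.3 ± 12 RPKM in DMSO, and 14.8 ± 2.4 RPKM after withdrawal and 73.1 ± 2.3 RPKM with HBEGF. Most like Hes5 were the receptor gene Adcyap1r1 (0.920) and the transcription factor gene Sox8 (0.850), and most like Hes1 were Yipf6 (0.869) and Nap1l5 (0.868). The closest genes to Hey1 were Ttyh1 and Glud1 (both 0.782), to Id1 Psmd8 (0.791) and Atp5d (0.772), and to Id2 Rtn4 (0.728) and Hspb6 (0.651).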

How the data were processed

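The authors deposited RPKM for 54429 entries in 25 libraries of immunopanned astrocytes, all of them used. Per the submitters' processing notes, reads were handled with STAR and HTSeq on the build GRCm38, and the authors also list edgeR and limma. No version, annotation release or strand setting is stated there. GENCODE M21 held the symbols of 53643 entries. RPKM times whole gene span summed to 998886 to 1002181 per library, and to 377045 to 519419 with exon length, so the deposited RPKM was taken as per span. Reads recovered with it were whole, within 0.1, for 99.3 to 99.4% of values up to 20 reads.

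Genes with at least 1 RPKM in at least 2 libraries (13850) were fitted in limma 3.58.1 (R 4.3.3) as log2(RPKM + 1), with 9 group means and robust, trended empirical Bayes on 16 residual degrees of freedom. There were 6 comparisons, plus the EGFR inhibitor change minus the withdrawal change, which share no library. The fit was also run on simulated counts, with the same spread setting for every gene and changes only in genes averaging at least 5 RPKM. That run does not bear on groups of unequal spread or on lower genes. Alternatives were a pseudocount of 0.1, no filter or one of 5 RPKM, 3 other scalings, a replicate block, each experiment alone, array weights, empirical Bayes neither trended nor robust, voom on recovered reads (at least 10 reads), each library left out, and, chosen after seeing the data, RPKM per exon length. Intervals and read floors cover counting error or library spread only.

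Named genes are all 10 members, up to 3 called genes of smallest p per pathway list and comparison, and, per tested member, the 2 most correlated genes. Dll1 for day 7 comes under the second rule. Members and lists were chosen with earlier results of these data known. Tables used pandas 2.3.3 and numpy 2.4.6 under Python 3.11.15, and figures matplotlib 3.10.9.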

Additional observations from a re-analysis of the deposited data

How the results depend on the processing

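Of the 12 member changes called, 6 passed with the same direction under every alternative and every left-out library: Id3, Id4 and Hes1 with the EGFR inhibitor, Id3 and Id4 after HBEGF withdrawal, and Hes1 for day 7 against day 2. No called change reversed. Over 144 values of the called changes under other settings 14 lost the call, and over 66 with a library left out 10 did. The number of members called after withdrawal was 5 with voom, which added Hey1 and Smad7 to the 3. Voom tested all 10 members, and after withdrawal it called 6896 of the 18013 genes it tested. For day 7 against day 2 it was 1 with the days fitted alone. For day 14 against day 2 it was 0 with the days fitted alone, 1 with no filter, 1 to 2 with a library left out and 3 with quantile normalization (Hey1, Id4 and Hes1). Over all alternatives the number ran from 0 to 3 there, from 1 to 4 for day 7 against day 2, from 3 to 5 with the EGFR inhibitor and from 2 to 5 after withdrawal. The cause was not tested, except that fitting alone uses fewer libraries.

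Deviations of same-numbered libraries from their group means correlated at -0.003 to 0.006 (EGFR), -0.03 to 0.061 (P53), 0.032 (HBEGF) and -0.095 to 0.118 (days). With 2 or 3 libraries per group, such values cannot decide whether same-numbered libraries were paired, and the labels do not say. With a replicate block 3 members were called with the EGFR inhibitor, 3 after withdrawal, 0 with the P53 inhibitor, 3 for day 7 against day 2, 0 for day 14 against day 7, 2 for day 14 against day 2 and 0 for the difference. Of all 13850 genes the block called 5061 with the EGFR inhibitor and 4040 after withdrawal. It called 1282 for day 7 against day 2 and 2774 for day 14 against day 2. The counts were 6 with the P53 inhibitor, 7 for day 14 against day 7 and 63 for the difference. The block also ended the Hes5 call with the EGFR inhibitor (limma adjusted p = 0.0623). For day 14 against day 2 the 2 members called were Hey1 and Id4 (0.0277) in place of Hey1 and Id2 (0.105).

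Uncalled log2 changes near 0 reversed. Under median-of-ratios and quantile scaling and scaling without mitochondrial genes these were Hes1 with the P53 inhibitor (0.021, 0.0556 and 0.0147, and 0.01005 with voom), Id1 for day 7 against day 2 (0.0688, 0.128 and 0.0701), Id2 after withdrawal (0.21, 0.19 and 0.17) and Id3 for day 14 against day 2 (0.17, 0.20 and 0.12). Hey1 for day 14 against day 7 was 0.0149 and 0.00445 under the first 2 scalings, and Id1 after withdrawal was 0.0105 under quantile scaling. For day 14 against day 7, array weights and voom gave 0.23 and 0.081 for Id2 and -0.0769 and -0.00636 for Id4. With a library left out, the ranges were -0.0175 to 0.43 for the Hes1 difference, -0.12 to 0.13 for Hes1 with the P53 inhibitor, -0.30 to 0.0802 for Hey1, -0.44 to 0.44 for Id2 and -0.34 to 0.30 for Id4 for day 14 against day 7, -0.58 to 0.0729 for Id1 and -0.17 to 0.13 for Id2 after withdrawal, -0.34 to 0.37 for Id1 for day 7 against day 2, and -0.19 to 0.17 for Id3 for day 14 against day 2.

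Median-of-ratios scaling moved the median change of all genes to 0 after withdrawal, from -0.103 as deposited, and to 0 for day 14 against day 2, from -0.112. Relative to that, calls over all genes were 2144 higher and 1989 lower after withdrawal (1390 and 3121 as deposited), 2752 and 2635 with the EGFR inhibitor (2261 and 3076), 666 and 757 for day 7 against day 2 (571 and 1328) and 1196 and 1160 for day 14 against day 2 (769 and 2439). Voom called 8445, 6896, 121, 2969, 114, 5084 and 683 genes for the EGFR inhibitor, withdrawal, P53 inhibitor, day 7 against day 2, day 14 against day 7, day 14 against day 2 and the difference, where the main counts were 5337, 4511, 25, 1899, 19, 3208 and 253. Those voom counts are out of 18013 genes tested and the main counts out of 13850. Fitted alone, withdrawal gave 474 of 9960 genes. The days fitted alone gave 183 of 11741 genes for day 7 against day 2 and 1335 for day 14 against day 2. They gave 0 for day 14 against day 7. At 0 to 67 reads per library, changes of Smad6, Smad7 and Hey2 are limited by depth.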
